A study of Mus musculus with 2 samples.

Results

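The promoters described here belong to genes of long noncoding RNA and lie away from the starts of coding genes. A promoter was taken as the window of 1 kb each side of a transcript start of a GENCODE gene of type lincRNA, antisense or processed_transcript, where that start lay over 5 kb from every start of a protein-coding gene. The rule sets no distance from the bodies of coding genes, and 1482 starts lay inside one on its opposite strand and 136 on its own strand. This gave 10123 starts of 7019 genes, out of 132721 transcript starts of 55413 genes on chromosomes 1 to 19, X and Y. Of these, 7157 starts (5174 genes) were lincRNA, 1830 (1416 genes) antisense and 1136 (429 genes) processed_transcript. Windows of neighbouring starts often overlapped, so that the 10123 windows formed 7621 separate clusters, and starts of 1 gene are not independent of each other.

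The data are DNase-seq, in which nuclei are treated with DNase I and the cut ends are sequenced, so that open chromatin is read as places with many cuts. The samples were cerebellum of male B6CASTF1/J mice (a cross of the B6 and CAST strains) aged 8-10 months, with no treatment. They form 1 group of 2 libraries, numbered replicate 1 and replicate 2 as in the labels, and each was made from a pool of 2 biosamples. Both pools carry the same donor entry, and whether they held tissue of the same mice is not in the labels. Their spread may therefore hold technical as well as biological variation.

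A long noncoding RNA is transcribed by RNA polymerase II and often spliced and polyadenylated like a messenger RNA, but is not translated into a known protein. Its promoter binds general and sequence-specific factors that displace nucleosomes, which leaves the DNA open to DNase I, and a factor that stays bound shields a short stretch inside the open region, called a footprint. Mammalian promoters fall broadly into CpG-rich ones, which many cell types use, and CpG-poor ones, which are more often restricted to particular cells. Long noncoding RNAs are known for cell-type-restricted expression, and the brain expresses many of them.

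The cerebellum label was set beside marker genes. All 8 granule cell markers had a peak in both libraries at a start, among them Neurod1 with a signal of 9.43 in replicate 1 and 8.50 in replicate 2, and Cbln3 with 12.2 and 9.99. None of 8 genes of other organs and body regions had one in either library. Of 4 choroid plexus genes, 1 had a peak in replicate 1 and 2 in replicate 2. Otx2 had a signal of 1.03 in replicate 1 and 1.13 in replicate 2, and Ttr, which marks the choroid plexus epithelium, had no peak in replicate 1 and 0.563 in replicate 2. The part of that tissue in the values below was not tested. The shorter of the peak lists held 61776 peaks in replicate 1 and 71141 in replicate 2, and the footprint lists held 314116 and 320832. The sources used here do not give the number of cuts behind each library or how reads in repeat sequence were placed. A missing peak therefore means only that none was called, at the depth of that library and with that placement of reads.

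Sequences from 6 of the leading promoters are shown as examples of footprinted DNA, and are not meant as typical open promoters. Each is 300 bases of the GRCm38 (mm10) reference from RefSeq, read 5′ to 3′ on the strand of its gene, and capitals mark bases inside a footprint of both libraries. The first pair, 1700096K18Rik (chr5:25529591-25529890, plus strand) and 6720427I07Rik (chr13:48546511-48546810, minus strand), is shown for the highest signal. Gm31812 (chr1:52113701-52114000, minus strand) is shown for the most shared footprint bases, 152 of 300, and Malat1 (chr19:5803471-5803770, minus strand), an abundant RNA of nuclear speckles, for the next most, 143. 1810026B05Rik (chr7:73558471-73558770, minus strand), named Chaserr in RefSeq and known to restrain its coding neighbour Chd2, is shown as a promoter with a known role, and Gm15408 (chr5:149006741-149007040, plus strand) as the one with the lowest CpG ratio of its window among the 6. These last 2 were chosen after their values were seen. The annotated start lies past the end of the printed bases in 1700096K18Rik, 6720427I07Rik, Malat1 and 1810026B05Rik.
1700096K18Rik: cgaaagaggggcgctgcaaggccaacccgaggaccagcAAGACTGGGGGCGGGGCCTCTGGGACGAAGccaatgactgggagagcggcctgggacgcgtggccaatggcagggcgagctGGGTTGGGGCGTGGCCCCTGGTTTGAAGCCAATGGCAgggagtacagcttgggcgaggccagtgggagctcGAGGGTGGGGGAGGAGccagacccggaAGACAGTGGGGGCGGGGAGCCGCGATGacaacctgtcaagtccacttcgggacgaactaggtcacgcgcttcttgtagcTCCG
6720427I07Rik: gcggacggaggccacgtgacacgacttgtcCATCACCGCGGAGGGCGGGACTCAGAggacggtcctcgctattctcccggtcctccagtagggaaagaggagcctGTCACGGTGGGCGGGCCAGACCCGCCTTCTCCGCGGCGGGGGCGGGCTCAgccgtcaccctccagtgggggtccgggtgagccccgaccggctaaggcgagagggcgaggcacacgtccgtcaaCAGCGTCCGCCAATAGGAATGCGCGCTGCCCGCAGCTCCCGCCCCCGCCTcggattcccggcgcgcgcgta
Gm31812: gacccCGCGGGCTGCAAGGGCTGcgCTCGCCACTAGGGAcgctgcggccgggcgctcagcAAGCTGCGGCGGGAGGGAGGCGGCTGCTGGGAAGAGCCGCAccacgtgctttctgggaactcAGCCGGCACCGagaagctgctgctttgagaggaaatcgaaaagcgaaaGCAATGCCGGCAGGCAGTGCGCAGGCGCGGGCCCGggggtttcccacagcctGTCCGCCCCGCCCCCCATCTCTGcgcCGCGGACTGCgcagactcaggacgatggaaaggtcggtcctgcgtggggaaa
Malat1: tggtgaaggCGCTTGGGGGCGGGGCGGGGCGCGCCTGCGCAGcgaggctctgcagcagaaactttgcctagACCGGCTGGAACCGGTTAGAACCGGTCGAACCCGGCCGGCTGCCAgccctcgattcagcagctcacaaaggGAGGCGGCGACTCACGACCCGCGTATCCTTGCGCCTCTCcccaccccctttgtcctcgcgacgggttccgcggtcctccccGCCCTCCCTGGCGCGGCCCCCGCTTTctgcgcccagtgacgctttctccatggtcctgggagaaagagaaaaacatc
1810026B05Rik: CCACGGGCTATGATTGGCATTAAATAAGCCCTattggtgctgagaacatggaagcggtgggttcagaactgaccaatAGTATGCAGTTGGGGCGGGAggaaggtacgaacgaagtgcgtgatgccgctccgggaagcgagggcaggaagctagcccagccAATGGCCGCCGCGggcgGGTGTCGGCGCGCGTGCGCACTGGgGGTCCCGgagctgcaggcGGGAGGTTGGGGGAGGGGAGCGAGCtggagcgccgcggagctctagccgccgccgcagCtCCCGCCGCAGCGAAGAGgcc
Gm15408: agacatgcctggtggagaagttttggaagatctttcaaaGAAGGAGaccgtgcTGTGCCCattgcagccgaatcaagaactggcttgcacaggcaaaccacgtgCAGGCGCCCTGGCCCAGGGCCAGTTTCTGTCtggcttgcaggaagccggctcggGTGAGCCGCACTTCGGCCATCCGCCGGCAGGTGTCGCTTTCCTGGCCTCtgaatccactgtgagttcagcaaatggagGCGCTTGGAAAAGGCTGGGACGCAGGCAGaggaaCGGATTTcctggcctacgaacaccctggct
Footprints of both libraries covered 114 bases in 1700096K18Rik, 126 in 6720427I07Rik, 139 in 1810026B05Rik and 130 in Gm15408. The GC-box GGGCGG, which binds factors of the SP and KLF families, was searched on either strand. It was matched 2 times in 1700096K18Rik and 4 times in 6720427I07Rik, and all 6 bases of each match lay in shared footprints. Matches in Gm31812 were also covered in full. In each of Malat1 and 1810026B05Rik a match was covered in part, at 4 and 2 of its 6 bases, and the rest in full. The motif of NRF1, an activator of CpG-rich promoters, was matched once in each of 3 promoters, as GCGCAGGCGC in Gm31812, GCGCCTGCGC in Malat1 and GCGCGTGCGC in 1810026B05Rik, each time with all 10 bases in a shared footprint. The E-box CACGTG occurred in 6720427I07Rik, Gm31812 and Gm15408 and had no base in a shared footprint in any of them. Gm15408 held no match of the GC-box. A match is a description of the letters and not a measured binding site.

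A minority of the starts was open by these calls. A peak overlapped 1314 of the 10123 windows in replicate 1 (12.98%, 95% Wilson interval 12.34% to 13.65%) and 1397 in replicate 2 (13.8%, 13.14% to 14.49%), a mean of 13.4% ± 0.580 (SD, n = 2). The same share was 38.9% in replicate 1 and 38.4% in replicate 2 over all transcript starts, and 49.7% and 48.7% over the 93513 coding starts. Starts of the same gene types within 5 kb of a coding start had a peak in 53.4% and 53.1%. Genome tiles of the same width, over 5 kb from coding starts and with no start of any kind, had one in 2.12% and 2.81%. In each library the share for long noncoding RNA starts away from coding starts therefore stood below that of coding starts and above that of the tiles, by gaps larger than the spread between replicates. With 1 group there are no conditions to test, so these and all later comparisons between kinds of starts are descriptions. The intervals cover counting error only and take starts as independent. In replicate 1 the 1314 starts with a peak rested on 806 distinct peaks, so the intervals understate that error. In bulk tissue a low share or signal from fewer open cells and one from less opening in each cell cannot be told apart.

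**Figure D1:**
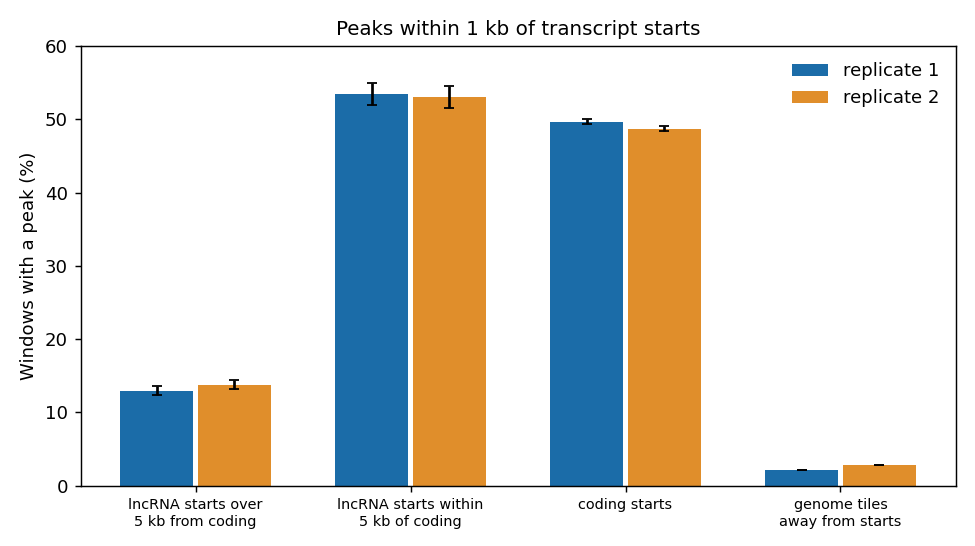
Percent of windows with a peak (vertical axis) for long noncoding RNA starts over 5 kb from coding starts, the same gene types within 5 kb, coding starts and genome tiles, with 1 bar per library and 95% Wilson intervals. The starts over 5 kb from coding starts had a peak in 12.98% (replicate 1) and 13.8% (replicate 2), below both other kinds of start and above the tiles.

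The libraries largely picked the same starts. A peak was present in both libraries at 1176 starts (11.62%), in replicate 1 alone at 138, in replicate 2 alone at 221 and in neither at 8588. The share with a peak in both was 36.7% over all transcript starts, 46.9% over coding starts, 50.6% over the same gene types near coding starts and 1.78% over the tiles. Of the starts with a peak in either library, 76.6% had one in both, against 91.2% of coding starts. At 1114 of the 1176 starts the strongest peaks of both libraries overlapped. Counted by gene, 793 genes had a peak in replicate 1, 868 in replicate 2 and 714 in both (10.2% of 7019), and 6072 had none.

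Where a peak was present, it was usually weaker than a peak at a coding start, but above the middle of all peaks of its library. The signal of a peak is the authors' value, with a scale that the sources used here do not state. Kinds of starts were compared within a library. Means over both libraries order genes only, and their SDs include the higher level of replicate 1 at most starts. The strongest peak in the window had a median signal of 1.76 in replicate 1 (quartiles 0.914 and 3.60) and 1.30 in replicate 2 (0.645 and 2.57), against 4.81 and 3.34 at coding starts. The median over all peaks was 1.40 in replicate 1 and 0.961 in replicate 2. Tiles with a peak had medians of 1.24 and 0.847. Ranked in the whole list of its library, the median peak of a long noncoding RNA start stood at the 59.2nd percentile in replicate 1 and the 61.8th in replicate 2, and that of a coding start at the 87.0th and 87.1st. These ranks use the strongest peak of each window and count a peak once for each start, while the list counts each peak once. In replicates 1 and 2, 32.1% and 33.9% of open long noncoding RNA windows held more than 1 peak. The part of this in the ranks was not tested. A minority was as strong as a typical coding promoter: 217 starts of 125 genes lay above the coding median in replicate 1 (16.5% of those with a peak) and 257 starts of 157 genes in replicate 2 (18.4%). Starts open in 1 library alone had the lowest signal, a median of 0.564 in replicate 1 and 0.411 in replicate 2, while starts open in both had medians of 1.88 and 1.52.

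**Figure D2:**
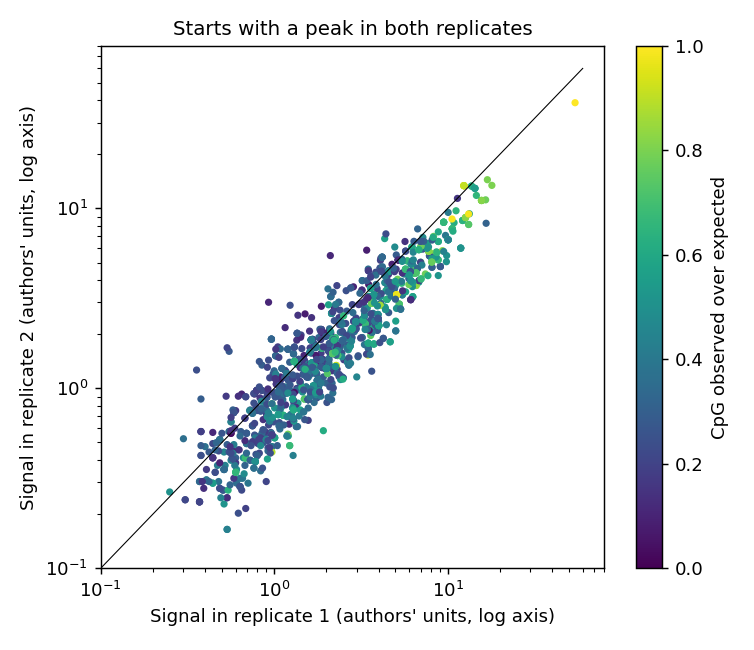
Signal of the strongest peak in replicate 1 (horizontal) and replicate 2 (vertical), both in the authors' units on log axes, for each start with a peak in both libraries, coloured by CpG observed over expected of the window, with the line of equal values. Most points lie below the line, with a median log2 ratio of replicate 1 to replicate 2 of 0.42, and the strongest promoters are mostly CpG-rich.

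The highest signals belonged to a small set of genes. The 25 genes with the highest mean signal, 1 for each cluster of windows, comprised 12 lincRNA, 3 antisense and 10 processed_transcript genes. All 25 held a footprint in the strongest peak of both libraries. Over the 1176 starts open in both libraries the share with one was 96.0% in replicate 1 and 97.3% in replicate 2, so this does not set the 25 apart. Signal was higher in replicate 1 for 24 of the 25, the exception being 1810026B05Rik. The median log2 ratio of replicate 1 to replicate 2 was 0.42 over the starts open in both and 0.54 over coding starts, so a higher value in replicate 1 is the common case. The lowest mean among the 25 was 8.40, and the next gene in order had 8.38, so the end of the list is not a step in the values.

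Gm42418, on chromosome 17 at 39846958, came first, with a signal of 54.2 in replicate 1 and 38.7 in replicate 2. These were the highest values of any peak in each library. The window also holds starts of the long noncoding RNA genes AY036118 and Gm26917. The RefSeq record for Gm42418 is Rn18s-rs5, a pseudogene record named for 18S ribosomal RNA, and its sequence is not shown. Unlike Gm42418, a pair of the other leading genes has a coding record in RefSeq. Tmem250-ps, with a signal of 16.5 in replicate 1 and 11.2 in replicate 2, lies 15 bases from a coding start of RefSeq, and a processed_transcript start of Zswim6, with 13.2 and 9.31, coincides with one. The window of Tmem250-ps also holds a start of 1810012K08Rik.

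After Gm42418 the order was led by 1700096K18Rik, a lincRNA gene 13.95 kb from the nearest coding start, that of Cct8l1, with a signal of 17.97 in replicate 1 and 13.4 in replicate 2. 6720427I07Rik, 32.9 kb from a coding start, had 16.9 and 14.4. These 2 genes did not differ beyond the spread between replicates (means 15.7 ± 3.22 and 15.7 ± 1.76, SD, n = 2 each). The antisense gene 1700113A16Rik, 9.53 kb from Mef2d, had 14.4 in replicate 1 and 12.9 in replicate 2. Gm13421, 12.7 kb from Wdr5, had 13.7 and 13.3. 1700028E10Rik, with 15.7 and 11.1, shares its window with the start of another long noncoding RNA gene, D730045B01Rik. From 1700096K18Rik to Gm31812, the last of the 25, the means of neighbours in the order differed by less than the larger of their SDs. These SDs include the higher level of replicate 1. Within each library some neighbours kept their order, as Zswim6 and Snhg8 did, and others exchanged it, as 1700096K18Rik and 6720427I07Rik did. With 2 libraries the order of neighbours is therefore uncertain. Far apart in the order, 6720427I07Rik lay above Gm31812, with 9.71 and 7.08, in each library.

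The promoter of 1810026B05Rik (Chaserr), 16.6 kb from a start of Chd2, had a signal of 12.4 in replicate 1 and 13.4 in replicate 2. Malat1 had 13.2 and 8.14. The peak of Malat1 was centred at -948.5 bases from the annotated start in replicate 1 and at -978.5 in replicate 2 (negative is upstream), near the edge of the window. Gm15408 had the largest ratio between the libraries of the 25, with 16.7 in replicate 1 and 8.27 in replicate 2, and Gm26901 and A230028O05Rik were the leaders farthest from coding starts, at 237.3 and 214.5 kb. The antisense gene 2210409D07Rik had almost equal values, 11.4 in each library, in a window with a CpG observed over expected ratio of 0.155, the lowest of the 25. Of the 25 windows, 18 had a ratio of 0.6 or more.

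**Figure D3:**
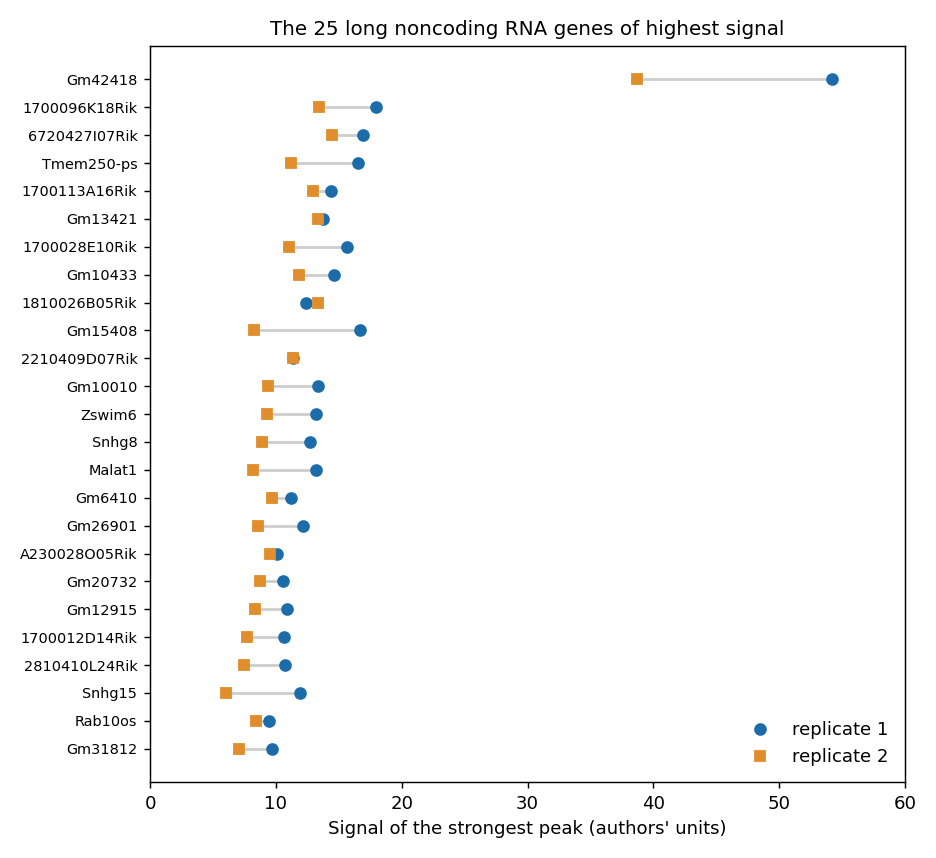
Signal of the strongest peak (horizontal, authors' units) at the best start of the 25 genes with the highest mean, in replicate 1 (circles) and replicate 2 (squares), joined by a line for each gene. Gm42418 stands alone at 54.2 and 38.7, and 24 of the 25 genes are higher in replicate 1.

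CpG content was higher at open starts than at closed ones. Over the window, the CpG observed over expected ratio had a median of 0.351 at starts with a peak in both libraries and 0.197 at starts with a peak in neither, against 0.622 and 0.220 for coding starts. Starts with a ratio of 0.6 or more were open in 73.5% ± 0.832 (SD, n = 2), against 92.4% ± 1.33 for coding starts of that class. Between 0.4 and 0.6, the shares were 46.1% ± 2.11 for long noncoding RNA starts and 79.0% ± 1.64 for coding starts. Between 0.2 and 0.4 they were 13.9% ± 1.01 and 20.02% ± 0.00761. Under 0.2 they were 4.37% ± 0.669 and 5.46% ± 0.226. The lower share of open long noncoding RNA starts thus held within each CpG class, and was largest in the class from 0.4 to 0.6. CpG-rich windows were few: 255 of the 10123 starts had a ratio of 0.6 or more, and 181 of these were open in both libraries, which is 15.4% of the 1176. Most of these open long noncoding RNA promoters were therefore not CpG-rich by this measure, whereas 54.9% of coding starts open in both libraries were.

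**Figure D4:**
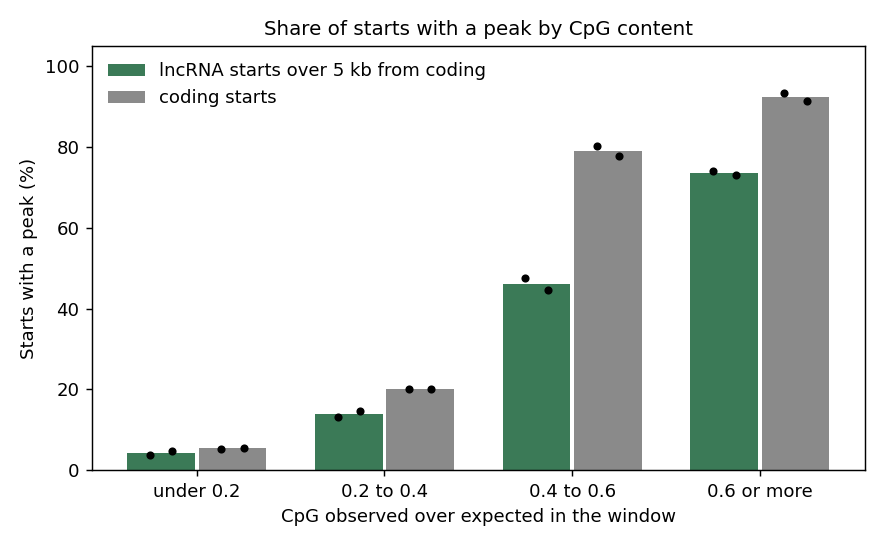
Percent of starts with a peak (vertical axis, mean of both libraries as bars and each library as a dot) by CpG observed over expected of the window, for long noncoding RNA starts over 5 kb from coding starts and for coding starts. Both kinds rise with CpG content, to 73.5% and 92.4% in the class of 0.6 or more, and coding starts are higher in every class.

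Gene type, distance and position moved with openness. Processed_transcript starts were open in 25.4% ± 0.311 (SD, n = 2), against 11.8% ± 0.711 of lincRNA starts and 12.2% ± 0.618 of antisense starts, which lay within 1 SD of each other. With the longer list they did not, at 15.6% ± 0.662 for lincRNA and 17.6% ± 0.927 for antisense starts. The median CpG ratio was also highest in the processed_transcript windows, at 0.257, against 0.203 for lincRNA and 0.219 for antisense. By distance to the nearest coding start, the share was 20.8% ± 0.481 at 5 to 10 kb, 15.6% ± 0.921 at 10 to 50 kb, 12% ± 0.424 at 50 to 200 kb and 7.73% ± 0.260 over 200 kb. CpG ratio fell along the same order, with medians of 0.243, 0.223, 0.206 and 0.175, and its part in the trend was not tested. Starts whose nearest coding gene had a peak in both libraries were open in 15.4% ± 0.440, against 9.93% ± 0.617 where that gene had none. The median CpG ratio of these groups also differed, at 0.223 and 0.187, and its part in the difference was not tested. Starts outside coding genes were open in 13.6% ± 0.557, and starts inside a coding gene on its opposite strand in 11.7% ± 0.668. The 136 starts inside a coding gene on its own strand were open in 17.6% ± 1.04.

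Annotation and repeats also moved with the share. A coding start of RefSeq, absent from the coding set used here, lay within 1 kb of 211 starts, which were open in 34.4% ± 1.68, against 12.9% ± 0.556 of the others. Among genes named by a Gm number, which marks a predicted gene model, 9.23% ± 0.775 of 6297 starts were open. Rik genes, named from the RIKEN cDNA collection, had 19.9% ± 0.0889, and genes with another symbol 20.8% ± 0.540. In the 1378 windows with repeat sequence over 50% or more of their length, 0.871% ± 0.205 had a peak, against 15.4% ± 0.639 of the rest.

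The X and Y chromosomes stood apart. On the X, 60 of 231 starts were open in each library (26.0%), and these were starts of 21 genes. They included 11 of 5530601H04Rik, 9 of Jpx, 9 of Ftx and 5 of Firre, so a few genes gave many of them. Counted by gene, 21 of 137 on the X and 692 of 6331 on the autosomes had a start open in both libraries. No peak lay at any of 776 starts on the Y, where the median window was 100% repeat sequence. Autosomal starts were open in 14.2% ± 0.644.

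Lists of well known long noncoding RNAs held open and closed promoters side by side. Each gene is given by its strongest start among those over 5 kb from coding starts, and its remaining starts were not used. Among 7 genes of imprinted domains, where a single parental allele is expressed, 4 had a peak in both libraries, 1 in replicate 2 alone and 2 in neither (57.1% with a peak in both, against 10.2% of all 7019 genes). Kcnq1ot1, the antisense RNA of the Kcnq1 domain, had a signal of 4.33 in replicate 1 and 6.79 in replicate 2. Meg3, at the head of the noncoding genes of the Dlk1 domain, had 3.32 and 2.55. Airn, the RNA that overlaps Igf2r, had 1.53 and 1.31. Snhg14, the source of the antisense RNA to Ube3a, had 0.535 and 0.246 at a start 274.3 kb from a coding start. H19 had no peak in replicate 1 and 0.430 in replicate 2, and neither Rian nor Mirg, which lie downstream of Meg3, had one in either.

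Over all 7019 genes, 10.2% had a peak in both libraries, which is the share to set beside each list that follows. Of 5 genes of the X-inactivation centre and the X chromosome, 3 had a peak in both libraries (60%) and 2 in neither. Ftx, which neighbours Xist and acts on it, had a signal of 6.82 in replicate 1 and 5.89 in replicate 2. Jpx, an activator of Xist, had 1.31 and 1.41, and Firre, an RNA that organises nuclear contacts, had 2.96 and 2.35. Xist, the RNA that coats the inactive X chromosome of females, and its antisense partner Tsix had no peak at any member start in either library of these male mice.

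Among nuclear and abundant RNAs, 3 of 4 had a peak in both libraries (75%, against 10.2% of all genes). Neat1, the scaffold of paraspeckles, had a signal of 6.14 in replicate 1 and 3.96 in replicate 2. Pvt1, a neighbour of Myc, had 0.778 and 0.392, and Miat, a neuronal nuclear RNA, had none in either. Of the 8 symbols of this list, Tug1, Norad, Gas5 and Oip5os1 had no start that met the rule. Nor had 2 of the 9 imprinted symbols (Nespas and Peg13), 4 of the 13 of brain development (Six3os1, Otx2os1, Lhx1os and Peril) and 3 of the 7 of body patterning (Hottip, Hotairm1 and Haglr).

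Among 9 genes linked to brain development, 3 had a peak in both libraries (33.3%, against 10.2% of all genes), Rmst in replicate 1 alone and 5 in neither. Mir124a-1hg, a host gene of the neuronal microRNA miR-124, had a signal of 4.95 in replicate 1 and 6.10 in replicate 2. C130071C03Rik, 68.5 kb from Mef2c, had 5.02 and 2.36, from separate peaks centred at 1120 bases in replicate 1 and -190.5 bases in replicate 2. Mir9-3hg, a host gene of miR-9, had 4.01 and 2.23. Rmst, a gene of neuronal differentiation, had 0.435 in replicate 1 and no peak in replicate 2. Sox2ot, Dlx6os1, Pantr1, Pantr2 and Crnde had none in either library at the starts used. None of 4 genes of body patterning and other organs, Hotair, Fendrr, Bvht and Halr1, had a peak in either library, beside a share of 10.2% with a peak in both over all genes, at which a list of 4 with none does not stand out.

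Host genes of small RNAs were mostly open. All 8 Snhg genes, whose introns carry small nucleolar RNAs, had a peak in both libraries, against 10.2% of all genes. The values of the Snhg genes reached from 0.535 (replicate 1) and 0.246 (replicate 2) at Snhg14 to 12.7 and 8.90 at Snhg8. Snhg15 had 11.9 in replicate 1 and 6.02 in replicate 2, and Snhg5 had 7.77 and 5.78. Snhg6 had 4.47 and 3.12, Snhg12 had 5.03 and 3.77, Snhg20 had 2.69 and 1.68, and Snhg17 had 2.66 and 1.40. All 7 besides Snhg14 had a CpG ratio of at least 0.4455, against 0.130 at Snhg14.

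Of 8 microRNA host genes, 6 had a peak in both libraries (75%, against 10.2% of all genes) and 2 in neither. Mir99ahg had a signal of 3.75 in replicate 1 and 3.31 in replicate 2, Mir670hg had 3.71 and 2.61, Mir17hg had 2.03 and 1.21, and Mir124-2hg had 1.45 and 1.36. Mir155hg, whose microRNA is known from immune cells, and Mir133a-1hg, whose microRNA is known from muscle, had none in either. Mir155hg had a CpG ratio of 0.737, above those of the open Mir17hg, at 0.731, and Mir670hg, at 0.364.

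Genes named for lying opposite a coding gene were mostly closed. Of 125 such genes, 16 had a peak in both libraries (12.8%), 17 in replicate 1, 18 in replicate 2 and 106 in neither, a share close to the 10.2% of all 7019 genes. The strongest was Rab10os, with a signal of 9.48 in replicate 1 and 8.38 in replicate 2. Zfhx2os had 7.28 and 6.56. In both Rab10os and Zfhx2os the strongest peaks of the libraries did not overlap, with centres at -10.5 and -360.5 bases for Rab10os and -1088 and -28.5 bases for Zfhx2os. Snhg7os had 8.82 and 4.24, and Dtnbos had 5.17 in each library. The lists differ in CpG content and in how many starts each gene has, and no test of a list against the rest was made.

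Some starts were open in 1 library by the shorter list. The strongest in replicate 1 alone was Gm35920, with a signal of 4.18, from a peak centred at -1206 bases that reached into the window. Gm32585 followed with 2.66, 4930401G09Rik with 2.50, Gm45437 with 2.22 and Gm15998 with 2.21. The strongest in replicate 2 alone were Gm42912 with 2.43, Gm40117 with 2.30, Gm26802 with 2.12, Gm33838 with 2.11 and Gm20069 with 1.77. The peaks of Gm32585, 4930401G09Rik and Gm40117 were also centred outside the window, at 1094, 1082 and -1082 bases. In the window of Gm35920 the cut rate still had a false discovery rate down to 6.63e-14 in replicate 2. In that of Gm40117 it reached 2.86e-25 in replicate 1. The longer list of the other library held a peak in 9 of these 10 windows, all except that of Gm35920. At Gm26802 its signal was 2.27 in replicate 1, against 2.12 in replicate 2, so the difference between libraries there lay in whether the shorter list included the peak.

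Footprints were present in most open promoters. The strongest peak held at least 1 footprint at 1240 of 1314 starts in replicate 1 (94.4%) and 1307 of 1397 in replicate 2 (93.6%), a mean of 94.0% ± 0.573 (SD, n = 2), against 98.0% ± 0.520 at coding starts. The median number per peak was 4 in each library, and 5 at coding starts. Per kb of peak there were 15.8 ± 0.456 footprints, against 18.5 ± 0.0602 at coding starts. Of windows without a peak, 284 (3.22%) in replicate 1 and 235 (2.69%) in replicate 2 held a footprint. This share was 7.56% and 6.38% at coding starts without a peak. For the same gene types within 5 kb of a coding start it was 12.75% and 7.88%.

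The windows richest in footprints were not all those of highest signal. Gm6410 held 33 footprints in replicate 1 and 31 in replicate 2, with a signal of 11.2 and 9.70. 2410080I02Rik, 6.33 kb from the transcription factor gene Klf9, held 23 and 31 with a signal of 4.98 and 3.93. At both the strongest peaks of the libraries did not overlap. Rab10os held 26 in each library, a start of Mir124a-1hg held 26 and 24, and a start of Mir9-3hg held 20 and 28.

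Open long noncoding RNA promoters were less tightly placed on the annotated start than coding ones. The middle of the strongest peak lay within 250 bases of the start in 52.9% of open windows in replicate 1 and 52.0% in replicate 2, against 69.5% and 68.9% at coding starts. For the same gene types within 5 kb of a coding start it was 52.4% and 51.7%, so the placement is shared with those. It lay upstream of the start in 62.0% and 65.1%, against 74.3% and 77.5%. The median position was -48.5 bases in replicate 1 and -64.5 in replicate 2, against -70.5 and -81.5 at coding starts. By gene type, 65.6% of processed_transcript peaks in replicate 1 and 58.7% in replicate 2 lay within 250 bases, against 40.5% and 42.4% of antisense peaks and 51.6% and 52.4% of lincRNA peaks.

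**Figure D5:**
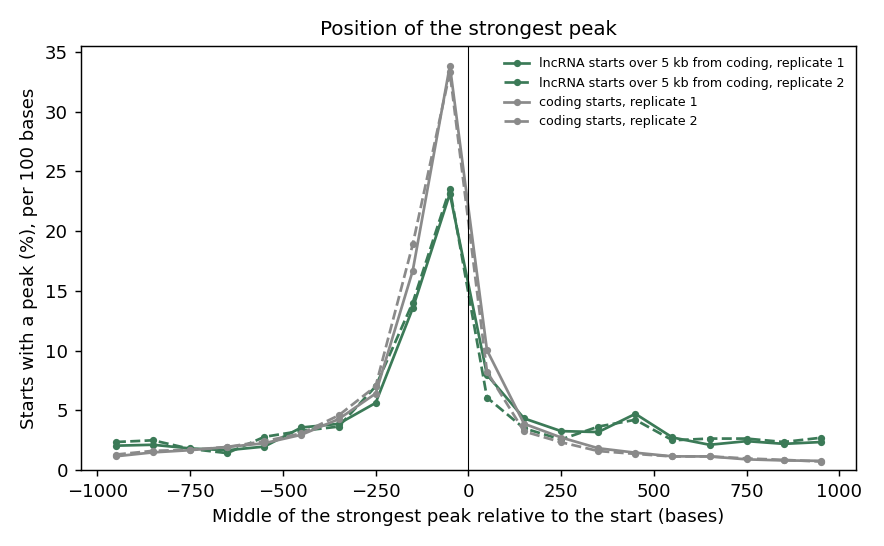
Position of the middle of the strongest peak relative to the transcript start (horizontal, bases, negative is upstream) as percent of starts with a peak per 100 bases (vertical), for long noncoding RNA starts over 5 kb from coding starts and for coding starts, in replicate 1 (solid) and replicate 2 (dashed). Both kinds reach their maximum just upstream of the start, and coding starts reach a higher maximum.

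Motif content of the open promoters was read in 300 bases around the middle of each peak, over 806 distinct peaks in replicate 1 and 878 in replicate 2, on both strands and without mismatch. CTCF is a factor that insulates domains and binds many sites away from promoters. The CTCF motif was in 20.5% ± 0.315 of them (SD, n = 2), against 17.6% ± 0.616 of peaks at coding starts, 18.98% ± 1.51 of all peaks and 8.22% of the 300 bases around all transcript starts. Around starts with no peak in either library it was in 4.204%. Of its matches in peaks at long noncoding RNA starts, 71.4% in replicate 1 and 65.6% in replicate 2 lay in a footprint. At coding starts these shares were 57.7% and 58.5%.

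The GC-box GGGCGG was in 27.3% ± 2.15 of peaks at long noncoding RNA starts, against 61.8% ± 2.07 at coding starts, 27.2% ± 3.77 of all peaks and 30.6% around all starts. The NRF1 motif was in 2.74% ± 0.334, against 9.92% ± 0.125 at coding starts, 2.78% ± 0.349 of all peaks and 3.54% around all starts. The ETS motif CCGGAAG was in 5.47% ± 0.331, against 15.7% ± 0.111 at coding starts, 5.67% ± 0.569 of all peaks and 7.96% around all starts. Each of these CpG-holding motifs was thus rarer in the open promoters of long noncoding RNA than in those of coding genes, by more than the spread between replicates, and about as frequent as in all peaks.

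The next 4 motifs hold no CpG and were more frequent than at coding starts. The E-box CAGATG, a form read by neuronal bHLH factors such as Neurod1, was in 28.6% ± 1.71 of peaks at long noncoding RNA starts, against 13.3% ± 0.495 at coding starts, 26.5% ± 1.78 of all peaks and 18.3% around all starts. It was also in 27.6% of the 300 bases around starts with no peak, so its share in open promoters was close to that in closed ones. The NFI half-site TTGGCA was in 25.6% ± 1.48, against 13.2% ± 1.11 at coding starts, 22.9% ± 2.61 of all peaks, 13.7% around all starts and 15.2% around starts with no peak. The ZIC motif CAGCAGG was in 16.96% ± 0.822, against 13.2% ± 0.343 at coding starts, 17.3% ± 0.539 of all peaks, 11.2% around all starts and 11.3% around starts with no peak. The AP-1 motif TGANTCA was in 9.91% ± 0.157, against 4.35% ± 0.336 at coding starts, 8.16% ± 0.918 of all peaks, 6.798% around all starts and 10.4% around starts with no peak. Of 2 further motifs without a fixed CpG, RFX was in 0.357% ± 0.0216, against 0.487% ± 0.00835 at coding starts, and MEF2 in 3.02% ± 0.406, against 2.55% ± 0.222.

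These shares moved with CpG content among the open promoters themselves. The GC-box and the NRF1 motif hold CpG in their own letters, so for them the class and the match are not independent. In windows with a CpG ratio under 0.2, the GC-box was in 4.60% ± 0.981 of peaks, and in windows of 0.4 or more in 54.9% ± 1.46. NRF1 had no match in the CpG-poor class, in 151 peaks of replicate 1 and 179 of replicate 2, and was in 7.14% ± 0.342 of the other. CAGATG was in 46.4% ± 0.856 of peaks in the CpG-poor class and in 14.5% ± 0.651 in the CpG-rich one. TTGGCA was in 36.3% ± 1.65 and 14.3% ± 0.152, and CAGCAGG in 23.7% ± 0.267 and 9.78% ± 0.260, in the same order. The CTCF motif was most frequent in the middle class, at 24.6% ± 0.454, against 13.7% ± 1.22 in the CpG-poor and 17.7% ± 0.0620 in the CpG-rich class.

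A TATA box in its usual place was rare. TATAAA lay 20 to 40 bases before the start, on its strand, at 22 of the 1176 starts open in both libraries (1.87%) and at 1.095% of those open in neither, against 1.098% of coding starts and 1.02% of all starts.

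Most closed starts were closed by the other lists as well. Of the 8588 starts in neither shorter list, 7875 (91.7%) held no base at which the cut rate had a false discovery rate under 0.05 in either library. The same share of coding starts in neither shorter list was 86.5%. Of windows without a peak of the shorter list, the longer list had one in 437 (4.96%) in replicate 1 and 455 (5.21%) in replicate 2, against 9.63% and 9.49% at coding starts.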

How the data were processed

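Cerebellum DNase-seq of 2 libraries in 1 group was analysed from files the authors deposited for each library. Peaks carry the authors' signal, a coverage value on an unstated scale. The deposited table of the false discovery rate (a q-value) of the cut rate lists intervals under 0.05, 22003960 in replicate 1 and 25142172 in replicate 2. Footprints carry 1 value, 0.01, in the deposited files, and were not ranked. The assembly is mm10 per the labels. The sources used here do not give the aligner, the callers or the read numbers, and the CAST and B6 alleles were not resolved.

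Starts came from GENCODE release 21, counted once for each gene, position and strand, and the sequence and coding starts of RefSeq from GRCm38. A start was open where a peak of the shorter list overlapped its window by 1 bp. Shares carry 95% Wilson intervals. No hypothesis test was made. Python 3.11.15, numpy 2.4.6, pandas 2.3.3 and scipy 1.17.1 were used, and counting was tested on simulated data. Genes named were the 25 of highest mean signal with a peak in both libraries, members of the lists, the 5 strongest in each library alone and the 5 with the most footprints. Of the 125 opposite-strand genes, only leading ones are named. Members, lists and motifs were chosen with earlier results of these data known. Of the 13 motifs searched, those not given in the report were CRE (TGACGTCA), in 1.90% of peaks, CACGTG, in 7.84%, and the NFI palindrome, in 0.0620%. Alternatives were other peak lists, windows, distances, coding sets, assignment of peaks and members, and leaving out each library.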

Additional observations from a re-analysis of the deposited data

Results flagged for a closer look

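Peaks of the longer list, which the shares above do not use, lay at 123 starts of 92 genes that had no peak of the shorter list in either library, and did so in both libraries. This is 1.43% of the 8588 starts in neither shorter list, against 3.22% of such coding starts. Their median signal was 0.371 in replicate 1 and 0.278 in replicate 2. The strongest, chosen after their values were seen, were Gm26519, with 1.35 in replicate 1 and 0.986 in replicate 2, Gm43848, with 1.15 in each, and Gm10432, with 1.23 and 0.904. At 12 of the 8588 starts (0.140%) a base had a false discovery rate of the cut rate under 0.001 in both libraries, against 0.394% of such coding starts.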

How the results depend on the processing

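Of 76 values recomputed under 12 alternatives, 43 stayed within the spread between replicates or, for counts, within 1.5 times, 33 moved and 0 reversed. A reversal is a change of sign, which only the difference from coding starts and the CpG difference can show. Shares, medians, ratios and counts could not reverse. The cause of each move was not tested. The share of open starts (13.4%) was 17.8% with the longer list, 10.7% with the stronger part of the shorter list, 11.2% in windows of 0.5 kb, 16.4% in windows of 2 kb, 12.6% over 10 kb and 14.0% over 2 kb from coding starts, and 10.98% with 1 start a gene. With alternatives chosen after seeing the data it was 14.5% without chromosome Y and 12.2% without starts that had a RefSeq coding start or a start of another gene type within 1 kb. The difference from coding starts (-35.8 percentage points) was -39.9 with protein_coding transcripts alone, -42.4 with 1 start a gene and -37.0 without those starts. Median signal (1.53) was 1.06 with the longer list and 1.91 with the stronger part. Its ratio to that of coding starts (0.377) was 0.294 with the longer list, 0.449 with the stronger part, 0.398 at 0.5 kb and 0.358 with 1 start a gene. The share of peaks with a footprint (94.0%) was 87.0% with the longer list and 97.8% with the stronger part. The CpG difference between open and closed windows (0.142) was 0.119 with the longer list, 0.155 with the stronger part, 0.209 at 0.5 kb, 0.0833 at 2 kb and 0.121 with 1 start a gene. The count open in both (1176) was 663 with 1 start a gene. With the longer list the shares were 15.6% for lincRNA, 17.6% for antisense and 31.8% for processed_transcript starts, and 24.9%, 19.9%, 16.6% and 12.1% from the nearest to the farthest distance.

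Leaving out each library, which with 2 libraries cannot move a mean by more than their SD and is not counted above, gave 12.98% to 13.8% for the share, -36.7 to -34.9 for the difference, 1.30 to 1.76 for median signal, 0.367 to 0.388 for the ratio, 93.6% to 94.4% for footprints and 0.134 to 0.151 for CpG. No paired analysis was possible because the libraries form 1 group and no groups were compared. With 2 libraries of unknown depth, weak peaks at or near the calling threshold are the least reliable values.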
